A study of Mus musculus with 22 samples.

Results

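The imprinted gene loci comprised 37 mouse genes known to be expressed mainly from 1 parental allele in at least some tissues, grouped here into 20 loci. They were chosen by name, and each was placed at its GENCODE M21 span on mm10. Together they overlapped 46 of 26327 bins of 100 kb with a 5-methylcytosine (5mC) level and 24 of 2641 bins of 1 Mb with a 5-hydroxymethylcytosine (5hmC) level. All of these bins were usable, among 25664 and 2581 usable bins in all. Bins within 500 kb of a member that overlapped no member served as neighbours, which gave 200 bins of 100 kb and 17 bins of 1 Mb. The tissues were cortex (cerebral cortex without the hippocampus), olfactory bulb and cerebellum of female C57BL/6 mice of 8 weeks, for which no treatment and no altered allele is named. 5mC was read by oxBS-seq, in which 5hmC is oxidized before bisulfite treatment, in 7 libraries, of which 3 were from cortex and 2 from each other tissue. 5hmC was read by TAB-seq, in which 5hmC is protected and 5mC is oxidized, in 3 libraries of each tissue, and the replicates came from different mice.

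Genomic imprinting starts in the germ line, where a short control region is methylated in the egg or in the sperm and keeps that mark on 1 parental chromosome in every later cell. The mark decides which parental copy of the surrounding genes is read, often through a long noncoding RNA or an insulator. Many imprinted genes are active in the brain, where they act on growth, feeding, maternal care and sleep. A control region is far smaller than a 100 kb bin, and the levels do not separate the parental alleles. Each value below therefore describes the whole bin around a gene and not the allele-specific mark itself. In whole tissue, a level shared by all cells and a mixture of cells with different levels cannot be told apart.

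Promoters from RefSeq (GRCm38.p6, 250 bases before to 50 after the start) were listed for 29 of the 37 members. With 1 promoter per gene, they held a median of 15 CpG sites, with a range from 0 in Rian to 45 in Grb10, against a median of 7 over all 32851 listed promoters. The motif TGCCGC, the methylated core bound by the imprint-keeping factor ZFP57, was present on either strand in 6 of the 29, which is 20.7%, and in 11.6% of all promoters. Those 6 were Grb10, Mcts2, Meg3, Nnat, Plagl1 and Zim1. The listed promoters of Plagl1, Mest and Mirg lie 30328, 9959 and 5217 bases from the gene starts used here. The motif itself holds a CpG site, and whether the higher CpG count of members bears on its share was not tested. The 4 promoters that follow belong to the member bins with the lowest 5mC level (Zdbf2), the next lowest (Nnat) and the highest (Zim1), and to Peg3, whose bin lies beside that of Zim1. They read 5′ to 3′ in the direction of transcription, with CpG sites in capitals.
Zdbf2 (chr1:63273019-63273318, plus strand): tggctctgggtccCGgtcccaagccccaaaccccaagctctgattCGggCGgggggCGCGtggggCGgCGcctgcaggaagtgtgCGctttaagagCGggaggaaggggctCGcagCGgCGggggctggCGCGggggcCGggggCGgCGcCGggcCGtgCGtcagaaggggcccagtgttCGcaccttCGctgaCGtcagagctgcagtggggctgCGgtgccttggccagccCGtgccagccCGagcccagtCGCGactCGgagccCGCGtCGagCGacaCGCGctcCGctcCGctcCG
Nnat (chr2:157559828-157560127, plus strand): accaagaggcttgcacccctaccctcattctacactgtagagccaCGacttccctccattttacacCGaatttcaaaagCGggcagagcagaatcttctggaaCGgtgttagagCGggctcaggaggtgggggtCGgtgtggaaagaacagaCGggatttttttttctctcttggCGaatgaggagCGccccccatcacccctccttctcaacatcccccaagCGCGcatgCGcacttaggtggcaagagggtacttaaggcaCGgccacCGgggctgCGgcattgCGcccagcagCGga
Peg3 (chr7:6730370-6730669, minus strand): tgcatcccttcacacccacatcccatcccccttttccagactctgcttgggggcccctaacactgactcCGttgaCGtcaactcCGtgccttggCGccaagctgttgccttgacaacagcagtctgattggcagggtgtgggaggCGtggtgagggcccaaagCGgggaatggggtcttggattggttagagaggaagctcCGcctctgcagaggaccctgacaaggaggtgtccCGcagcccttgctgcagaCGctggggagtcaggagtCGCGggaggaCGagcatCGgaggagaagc
Zim1 (chr7:6696383-6696682, minus strand): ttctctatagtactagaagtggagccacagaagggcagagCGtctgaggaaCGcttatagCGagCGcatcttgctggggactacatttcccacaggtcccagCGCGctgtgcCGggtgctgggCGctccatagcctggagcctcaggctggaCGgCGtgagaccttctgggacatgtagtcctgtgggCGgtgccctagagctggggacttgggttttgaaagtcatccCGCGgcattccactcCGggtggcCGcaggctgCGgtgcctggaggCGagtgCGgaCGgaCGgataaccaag
The Zdbf2 promoter held 38 CpG sites, Zim1 20, Nnat 17 and Peg3 13.

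Mean 5mC over all usable bins was 0.677 ± 0.0147 (SD, n = 3) in cortex, 0.707 ± 0.00286 (n = 2) in olfactory bulb and 0.731 ± 0.0114 (n = 2) in cerebellum. Mean 5hmC went the other way, at 0.163 ± 0.00946, 0.145 ± 0.00431 and 0.0949 ± 0.00176 (n = 3 each). Libraries of 1 tissue correlated across bins at r = 0.947 to 0.982 for 5mC and 0.994 to 0.998 for 5hmC. The study states a mean genome coverage per tissue, but the tables of levels hold no reads or coverage, so the depth behind the level of a bin is unknown. As a check of the tissues, the bins of 4 marker genes per tissue were compared in 5mC. They were lowest in their own tissue for 3 of 4 cortex markers, 4 of 4 olfactory bulb markers and 3 of 4 cerebellum markers. After centring of the libraries these counts were 3, 3 and 4. The markers were chosen with earlier results of these data known, so the check is not independent. Cortex also had the lowest mean over all bins.

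Bins of imprinted genes carried less 5mC than the bins beside them in all 3 tissues. The 46 bins averaged 0.637 ± 0.0162, 0.657 ± 0.00896 and 0.678 ± 0.00775 (cortex, olfactory bulb, cerebellum). The 200 neighbours averaged 0.666 ± 0.0158, 0.690 ± 0.00549 and 0.711 ± 0.012, so that members minus neighbours was −0.0291 ± 0.0034, −0.0332 ± 0.00347 and −0.0334 ± 0.0042. This gap was several times its spread between libraries and of like size in each tissue. Averaged over tissues, 38 of the 46 bins were under the median of all bins. Member bins were also richer in CpG sites, with a median of 1041 per bin against 912 in neighbours and 751 in all bins, and more of their length was covered by genes, at 68.9%, 56.2% and 46.2%. The part of these differences in the 5mC gap was not tested.

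To set each bin against its own surroundings, the mean of the usable bins within 500 kb on either side, other members included, was subtracted in each library and the difference was tested with limma across all bins. By the mean of the tissues, 27 of the 46 bins (58.7%) were lower than their surroundings, where 32.7% of all bins were, and 13 (28.3%) were higher, where 46.3% of all bins were. Of the 27, 26 were lower under all 14 alternatives. Of the 27 lower bins, 24 held the start of a member. Among the 31 bins that held the start of a member, 77.4% were lower and 5 were higher, with a median difference of −0.0582. Among 10672 bins with the start of any protein-coding gene, 50.8% were lower, with a median of −0.0138. Of the 15 member bins without a member's start, 3 were lower and 8 higher. The start bins held a median of 1067 CpG sites against 1005 in the bins of protein-coding starts, and whether this bears on the difference was not tested.

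**Figure D1:**
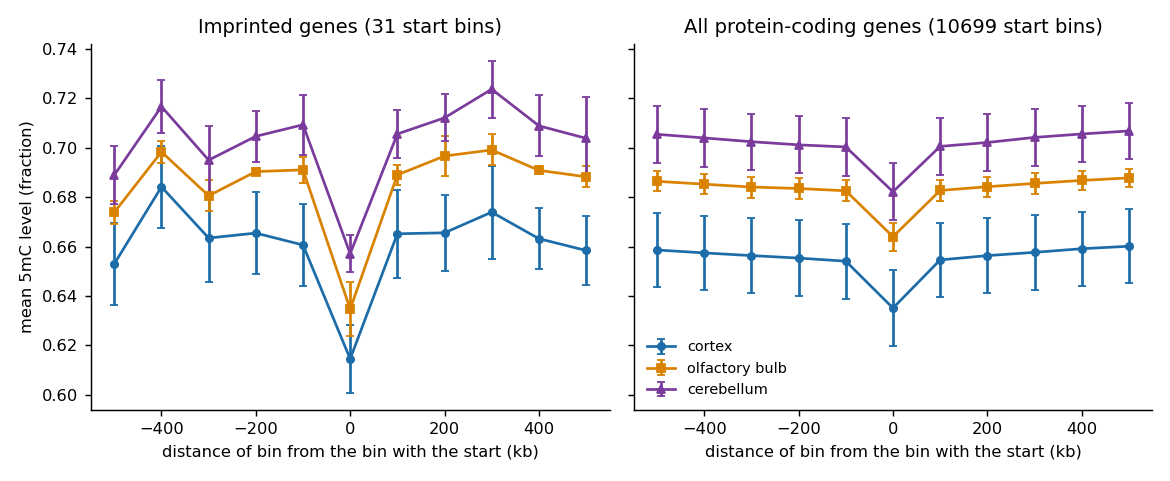
Mean 5mC level (fraction, y axis) by distance in kb from the bin with the gene start (x axis), for the 31 start bins of imprinted genes (left) and 10699 start bins of protein-coding genes (right); points are means and bars SDs over the libraries of a tissue. At the start bin the imprinted genes dip to 0.614, 0.635 and 0.657 (cortex, olfactory bulb, cerebellum), from 0.661, 0.691 and 0.709 in the bin before it.

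The dip was 1 bin wide. In cortex the start bins of members averaged 0.614 ± 0.0139 (n = 3), while the bins before and after them averaged 0.661 ± 0.0168 and 0.665 ± 0.0178. In cerebellum the same bins averaged 0.657 ± 0.00742 (n = 2), 0.709 ± 0.0121 and 0.706 ± 0.00964. Around protein-coding starts the dip was shallower, from 0.654 ± 0.0152 before the start to 0.635 ± 0.0155 in cortex.

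By locus, 17 of 20 loci had a mean level under that of the neighbours that overlap no member, and 15 were under it in each of the 3 tissues. The mean over loci was −0.04 ± 0.00455 in cortex (n = 3), −0.0432 ± 0.00424 in olfactory bulb (n = 2) and −0.0367 ± 0.0054 in cerebellum (n = 2). The 16 loci grouped as methylated on the maternal allele averaged −0.0401, −0.0458 and −0.0365 in the 3 tissues. The 4 loci grouped as methylated on the paternal allele averaged −0.0397, −0.033 and −0.0377. These 4 are H19-Igf2, Dlk1-Meg3, Rasgrf1 and Zdbf2. The group means were close in cortex and cerebellum. In olfactory bulb the libraries of the maternal group, −0.0419 and −0.0496, lay under those of the paternal group, −0.0333 and −0.0327. This difference was not tested, and the second group holds only 4 loci.

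**Figure D2:**
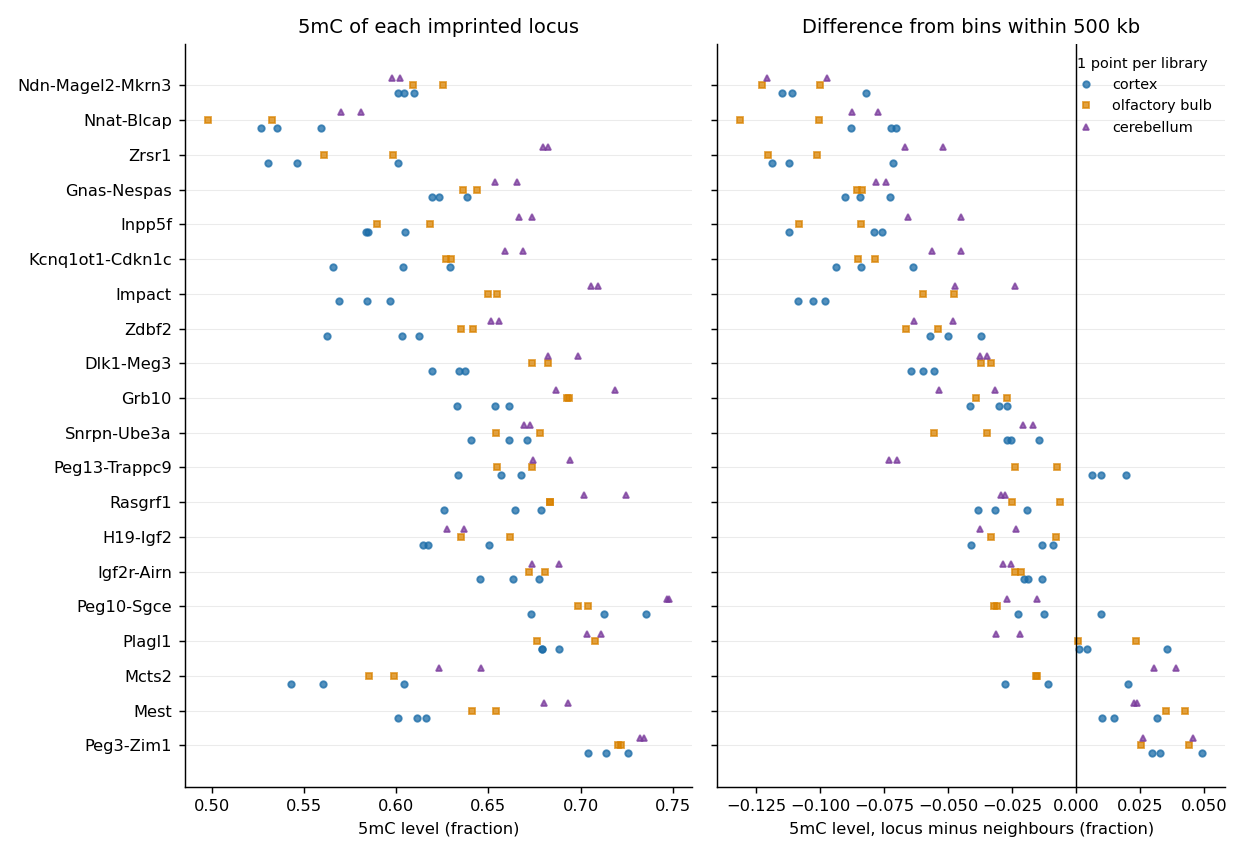
5mC level of each of the 20 imprinted loci (left, fraction) and the same level minus the neighbours within 500 kb (right, fraction), with 1 point per library coloured by tissue and the loci sorted by the difference. Ndn-Magel2-Mkrn3 is lowest at −0.108 by the mean of the tissues, Peg3-Zim1 is highest at 0.0359, and Peg13-Trappc9 spreads from 0.0119 in cortex to −0.0716 in cerebellum.

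The locus furthest below its neighbours was Ndn-Magel2-Mkrn3 (chr7:62346569-62420139), which holds the MAGE-family genes Ndn and Magel2 and the ubiquitin ligase gene Mkrn3 of the Prader-Willi region. Its difference from its 10 neighbours was −0.103 ± 0.0178, −0.111 ± 0.0161 and −0.109 ± 0.0166 in the order cortex, olfactory bulb, cerebellum. The lower of its 2 bins was that of Mkrn3 (chr7:62400001-62500000), at 0.568, 0.572 and 0.57 in the cortex libraries, 0.593 and 0.561 in olfactory bulb, and 0.559 and 0.551 in cerebellum. The bin was thus low in every tissue. Its difference from its surroundings was −0.141 ± 0.00559 (SE), with a limma adjusted p of 6.29e-10, and that of the adjacent bin of Ndn and Magel2, at 0.64, 0.657 and 0.644 in the 3 tissues, was −0.0533.

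Nnat, which encodes the small membrane protein neuronatin and lies in an intron of Blcap, came next. The bin chr2:157500001-157600000 holds both genes and read 0.535, 0.559 and 0.527 in cortex, 0.533 and 0.498 in olfactory bulb, and 0.581 and 0.57 in cerebellum. This was the 4.39th percentile of all bins, and the difference from its surroundings was −0.0917 ± 0.00494 (SE, limma adjusted p = 7.78e-09). Zrsr1, a retrogene in an intron of Commd1, followed with a locus difference of −0.0903. Its bin averaged 0.559 ± 0.037 and 0.580 ± 0.0265 in cortex and olfactory bulb, and 0.681 ± 0.00189 in cerebellum.

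At the other end stood Peg3-Zim1, Mest and Mcts2. Peg3 and Zim1 are neighbouring zinc finger genes read from opposite parental alleles, Peg3 from the father's and Zim1 from the mother's, and their adjacent bins differed. The Zim1 bin (chr7:6600001-6700000) read 0.785, 0.789 and 0.771 in cortex, 0.796 and 0.795 in olfactory bulb, and 0.784 and 0.788 in cerebellum. The Peg3 bin (chr7:6700001-6800000) read 0.642, 0.662 and 0.636, 0.648 and 0.646, and 0.68 and 0.681 in the same order. Every library therefore had the Zim1 bin above the Peg3 bin. Relative to its surroundings, Zim1 was at 0.0967 ± 0.00462 (SE) and Peg3 at −0.0537 ± 0.0044. Both calls held under all 14 alternatives. The difference of Mest from its neighbours was 0.0269, and came to −0.0183 when only neighbours within 250 kb were used. That of Mcts2, 0.00436 by the mean of the tissues, did not pass (limma adjusted p = 0.486).

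**Figure D3:**
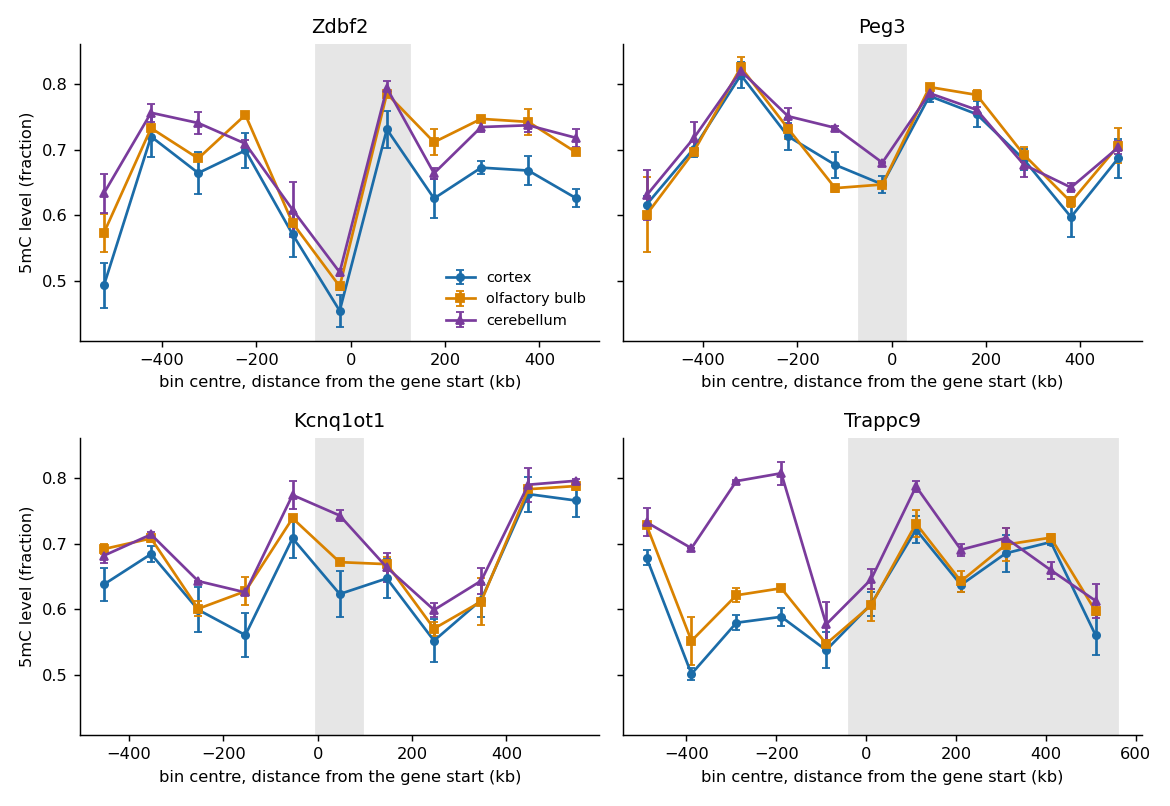
5mC level (fraction, y axis) of the 100 kb bins around the starts of Zdbf2, Peg3, Kcnq1ot1 and Trappc9, by distance in kb of the bin centre from the start in the direction of transcription (x axis); points are means and bars SDs over libraries, and grey marks the bins that overlap the gene. Zdbf2 drops to 0.454 in cortex at its start bin and reaches 0.731 in the next, and the levels before the Trappc9 start separate cerebellum from the other tissues.

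The steepest change inside a locus was at Zdbf2, a zinc finger gene active from the father's allele whose paternally methylated region lies before its start. The bin with the start (chr1:63200001-63300000) read 0.464, 0.472 and 0.425 in cortex, 0.488 and 0.495 in olfactory bulb, and 0.509 and 0.516 in cerebellum. It was the lowest member bin, at the 1.74th percentile of all bins, and its difference from its surroundings was −0.2 ± 0.00475 (SE), with a limma adjusted p of 1.3e-11. The next bin, with the end of the gene, averaged 0.731 ± 0.0283, 0.786 ± 0.00475 and 0.794 ± 0.0113, and was 0.0955 ± 0.00422 (SE) above its surroundings.

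Other loci were split in the same manner. In Snrpn-Ube3a, the centre of the Prader-Willi and Angelman domain, the bin with the start of the ubiquitin ligase gene Ube3a (chr7:59200001-59300000) averaged 0.571 ± 0.0337, 0.544 ± 0.0545 and 0.600 ± 0.0248, and was at −0.147 ± 0.00943 (SE) relative to its surroundings. The 3 bins of Snrpn, a splicing protein gene, ranged from 0.653 to 0.71 over tissues. The bin with the start of the Snrpn span was 0.042 above its surroundings, which is 1 of the 5 start bins that were higher. The promoter listed at that start held 3 CpG sites, and which of the Snrpn bins holds the control region was not examined. In Igf2r-Airn, the bin shared by the receptor gene Igf2r and the start of its antisense noncoding RNA Airn was at −0.0938 relative to its surroundings, while the bin with the end of Igf2r was at 0.0708. In H19-Igf2, the bin of the growth factor gene Igf2 was at −0.0883 and that of the noncoding RNA H19 at 0.0294, although the latter came to −0.00142 with neighbours within 250 kb.

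Trappc9, a trafficking complex gene with a maternal bias in brain, is the longest member at 472 kb and spans 6 bins, 1 of which also holds the noncoding RNA Peg13 in an intron. Relative to their surroundings these bins ran from −0.124 at the end of the gene (chr15:72500001-72600000) to 0.096 in the bin after the start bin (chr15:72900001-73000000). The Peg13 bin, around the egg-methylated region of the locus, was at −0.0186 and read 0.637 ± 0.0106, 0.643 ± 0.0162 and 0.691 ± 0.00949 in the 3 tissues.

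The remaining loci are given by their members, in the order cortex, olfactory bulb and cerebellum. Among egg-methylated loci, Peg10, derived from a retrotransposon, read 0.696, 0.686 and 0.713, and its neighbour Sgce, which encodes epsilon-sarcoglycan, 0.707, 0.701 and 0.747. Mest read 0.609, 0.647 and 0.687, and the growth factor receptor adaptor gene Grb10, read from the paternal allele in neurons, 0.649, 0.693 and 0.703. These genes were all lowest in cortex or olfactory bulb and highest in cerebellum. In the Gnas cluster, Gnas, the stimulatory G protein alpha subunit gene, read 0.627, 0.640 and 0.66 and its antisense RNA Nespas 0.626, 0.655 and 0.645. Plagl1, a zinc finger gene, read 0.682, 0.692 and 0.707, the inositol phosphatase gene Inpp5f 0.591, 0.604 and 0.67, and Mcts2, a retrogene in an intron of H13, 0.569, 0.592 and 0.635. Impact, a regulator of translation, read 0.583, 0.652 and 0.708. Of these, Impact had the widest range over tissues.

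The Kcnq1ot1-Cdkn1c locus is organised around the noncoding RNA Kcnq1ot1, which silences its neighbours on the paternal allele. The Kcnq1ot1 bin read 0.623, 0.672 and 0.743. The bins of the silenced genes had lower means. That of the cell cycle inhibitor gene Cdkn1c and the transporter gene Slc22a18 read 0.561, 0.628 and 0.626. Phlda2, a limiter of placental growth, read 0.599, 0.601 and 0.643, and the transcription factor gene Ascl2 0.614, 0.612 and 0.644. In cortex the Ascl2 bin, at 0.614 ± 0.0261, was close to the Kcnq1ot1 bin, at 0.623 ± 0.0349 (n = 3). The order of these bins was not tested. In the sperm-methylated Dlk1-Meg3 locus, the level was lowest at Dlk1, a Notch-related membrane protein gene, at 0.579, 0.634 and 0.621, and highest at the miRNA host Mirg, at 0.707, 0.747 and 0.739. The noncoding RNAs between them read 0.62, 0.663 and 0.684 for Meg3 and 0.614, 0.667 and 0.718 for Rian, which hosts small nucleolar RNAs. Rasgrf1, a guanine nucleotide exchange factor gene, read 0.656, 0.683 and 0.713. H19 read 0.663, 0.695 and 0.679, and Igf2 0.592, 0.602 and 0.585, with no ordered change over the tissues.

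Between tissues, 5mC at imprinted loci followed the genome but moved less, and so did the bins beside them. The median difference of log2(level/(1 − level)) between olfactory bulb and cortex was 0.12 over the 46 bins, 0.17 over the 200 neighbours and 0.22 over all bins. Between cerebellum and cortex it was 0.25, 0.30 and 0.43, and between cerebellum and olfactory bulb 0.14, 0.14 and 0.19. Most of the smaller shift was therefore shared with the neighbours in the comparisons with cerebellum. With limma, 9 of 46 bins were higher in olfactory bulb than in cortex, where 37.6% of all bins were, and 0 were lower, where 2.18% were. At an unadjusted p under 0.05, 12 of the 46 differed, where 50.4% of all bins did. In cerebellum, 24 were higher than in cortex (71.9% of all bins) and 1 was lower (4.44%), and 13 were higher than in olfactory bulb (35.3%) and 1 was lower (7.69%). In each comparison the share of members called higher, 19.6%, 52.2% and 28.3%, was under that of all bins, and among neighbours it was 23%, 61.5% and 28%.

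Since all 3 comparisons shifted as a whole, the fit was repeated with each library centred on its median, so that a call is a change relative to the genome. Then 0 of 46 bins were higher and 4 lower in olfactory bulb than in cortex, against 8.81% and 9.90% of all bins. In cerebellum, 4 were higher and 17 lower than in cortex, against 25.7% and 24.3%, and 4 were higher and 11 lower than in olfactory bulb, against 22.1% and 21.3%. The counts without centring also depended on single libraries. The 9 of olfactory bulb and cortex became 5 without cortex replicate 1, 1 without olfactory bulb replicate 1 and 2 without olfactory bulb replicate 2, and 2 when bins listed at 0 or 1 were kept. The 25 of cerebellum and cortex became 15 without cerebellum replicate 1. The 14 of cerebellum and olfactory bulb became 7 and 3 without olfactory bulb replicates 1 and 2, and 4 and 8 without cerebellum replicates 1 and 2.

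**Figure D4:**
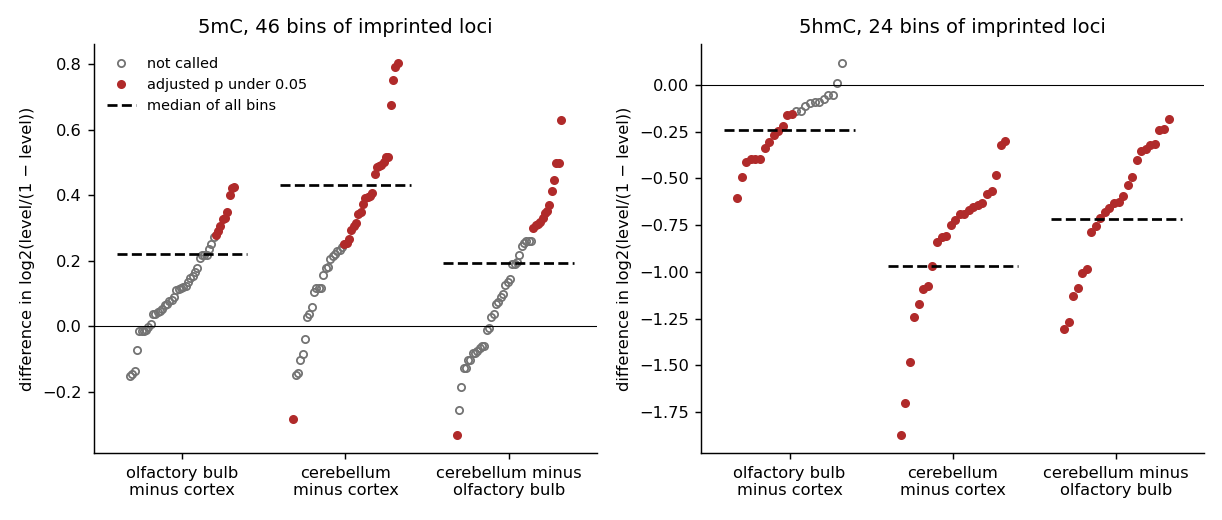
Difference in log2(level/(1 − level)) between tissues (y axis) for the 46 bins of 100 kb with 5mC (left) and the 24 bins of 1 Mb with 5hmC (right), each point 1 bin, sorted within a comparison; filled points have a limma adjusted p under 0.05 and dashes mark the median of all bins. For 5mC between cerebellum and cortex the members' median is 0.25 and the dash is at 0.43; for 5hmC they are −0.74 and −0.97.

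The largest rises from cortex to cerebellum were at Impact, Zrsr1, Kcnq1ot1, Rian and Inpp5f. The Impact bin read 0.584, 0.597 and 0.569 in cortex, 0.655 and 0.649 in olfactory bulb, and 0.706 and 0.71 in cerebellum. These groups did not overlap, and the log2 difference was 0.79 ± 0.12 (SE), with a limma adjusted p of 2.85e-10. The Zrsr1 bin (chr11:22900001-23000000) read 0.546, 0.601 and 0.53 in cortex, 0.598 and 0.561 in olfactory bulb, and 0.682 and 0.68 in cerebellum. Here cortex and olfactory bulb overlapped and cerebellum stood above both, by a log2 difference of 0.75 ± 0.12 and 0.63 ± 0.13. The Kcnq1ot1 bin (chr7:143200001-143300000) read 0.623, 0.659 and 0.589 in cortex, 0.669 and 0.675 in olfactory bulb, and 0.749 and 0.738 in cerebellum. It was ordered like Impact, with a log2 difference of 0.80 ± 0.12 from cortex to cerebellum (limma adjusted p = 1.52e-10). The Rian bin (chr12:109600001-109700000) rose by 0.68 ± 0.12, from 0.614 ± 0.0119 to 0.718 ± 0.0289. The Inpp5f bin rose by 0.49 ± 0.12, from 0.591 ± 0.012 to 0.67 ± 0.00507. Of these 5, the rises at Impact, Zrsr1, Kcnq1ot1 and Rian passed under every alternative, with Inpp5f short of the threshold after centring.

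Between cerebellum and olfactory bulb, Zrsr1, Kcnq1ot1, Inpp5f, Sgce and the Nnat bin changed most. The Sgce bin (chr6:4600001-4700000) averaged 0.717 ± 0.00558 in olfactory bulb and 0.782 ± 0.00735 in cerebellum, a log2 difference of 0.50 ± 0.13. Its call passed under 12 of 13 alternatives. The Nnat bin averaged 0.515 ± 0.0249 and 0.575 ± 0.00766, and its call was lost without olfactory bulb replicate 2 or either cerebellum replicate. That of Inpp5f was lost without olfactory bulb replicate 2. Between olfactory bulb and cortex the 5 largest rises were at Impact, the bin of Cdkn1c and Slc22a18, the second bin of Grb10, the second bin of Zdbf2 and Dlk1. They ranged from 0.0541 to 0.0689 in level. All 5 lost their call without 1 or the other olfactory bulb replicate, Dlk1 also without cortex replicate 2, and all 5 after centring.

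The 1 member bin called lower in cerebellum than in either other tissue was a bin inside Trappc9 (chr15:72600001-72700000), at 0.705, 0.706 and 0.698 in cortex, 0.706 and 0.713 in olfactory bulb, and 0.669 and 0.651 in cerebellum. The cerebellum libraries lay under all others. The log2 difference was −0.29 ± 0.12 (SE) from cortex (limma adjusted p = 0.0212) and −0.33 ± 0.13 from olfactory bulb (limma adjusted p = 0.0266). The first call was lost without cortex replicate 1 or 2 or cerebellum replicate 2, and the second without any 1 of the 4 libraries compared.

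Measured against the surroundings, the same Trappc9 bin had the largest change of all members. The mean of its surroundings rose from 0.659 ± 0.0175 in cortex to 0.72 ± 0.0149 in cerebellum, so that the bin relative to them went from 0.0443 ± 0.0133 to −0.0606 ± 0.00201. That is a change of −0.105 ± 0.011 (SE), with a limma adjusted p of 6.58e-05, and −0.0899 ± 0.0121 from olfactory bulb (limma adjusted p = 0.000333). Both passed under all 14 alternatives. Before the Trappc9 start, outside the gene, 3 bins rose sharply in cerebellum. The bin centred 189 kb before the start went from 0.589 ± 0.0135 in cortex and 0.632 ± 0.000393 in olfactory bulb to 0.808 ± 0.0172 in cerebellum. The bin centred 289 kb before it went from 0.58 ± 0.0112 in cortex to 0.796 ± 0.00117 in cerebellum. The bins centred 189 and 289 kb before the start lie outside the surroundings of the Trappc9 bin above. Both lie within those of the Trappc9 bin from 73000001, and the first also within those of the bin from 72700001. Both bins before the start are among the neighbours of the whole locus. In the same tissues the whole Peg13-Trappc9 locus relative to its neighbours was at 0.0119 ± 0.00687 in cortex and −0.0716 ± 0.00223 in cerebellum.

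Over all 46 bins, the calls for tissue changes relative to the surroundings were 4.35%, 21.7% and 15.2% of the bins in the 3 comparisons. Between olfactory bulb and cortex, Impact was higher and the bin of Igf2r and Airn lower, 1 bin each way, where 5.15% and 5.13% of all bins were. Between cerebellum and cortex, 5 were higher (13% of all bins) and 5 lower (11.6%). The 5 higher were the second bin of Ube3a, Kcnq1ot1, Rian, Mcts2 and Impact. The 5 lower were the bin of Peg10 and Sgce, the bin of Igf2r and Airn and 3 bins of Trappc9. In level, the bin of Igf2r and Airn and the Trappc9 bin from 72600001 fell from cortex to cerebellum. The bin of Peg10 and Sgce rose from 0.696 to 0.713, less than its surroundings. So did the Trappc9 bins from 72700001, from 0.686 to 0.709, and from 73000001, from 0.608 to 0.646. Between cerebellum and olfactory bulb, 6 were higher (11.7%) and 1 was lower (10.4%). The 10 of cerebellum and cortex became 6 and 5 without cerebellum replicates 1 and 2, and the 7 of cerebellum and olfactory bulb became 4 and 2. Without cortex replicate 1, the 2 of olfactory bulb and cortex became 1. The changes of Kcnq1ot1 and Rian from cortex to cerebellum, 0.0813 ± 0.0109 and 0.0657 ± 0.0116 (SE), passed under all 14 alternatives. The Kcnq1ot1 bin relative to its surroundings went from −0.0314 ± 0.0149 to 0.05 ± 0.00227, while the bins of Cdkn1c, Phlda2 and Ascl2 in the same locus showed no called change. For the locus means, the smallest p of the exact 2-sided permutation test is 0.1 for 3 libraries against 2 and 0.33 for 2 against 2, so that no locus could pass.

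5hmC, the oxidation product of 5mC that is abundant in neurons, was given only per 1 Mb, so a value covers a member and everything near it. The 24 bins averaged 0.162 ± 0.00885, 0.145 ± 0.00443 and 0.101 ± 0.00178 in the same order of tissues (n = 3 each), close to the means of all bins. As a set they lay below the 17 neighbours. Members minus neighbours was −0.0106 ± 0.000639, −0.0122 ± 0.00101 and −0.00857 ± 0.000609, negative in each of the 9 libraries. The sets were not matched by locus, as the 2 bins of Grb10 had 0 neighbours, and single loci went both ways. By the mean of the tissues, locus minus neighbours was 0.054 at Peg3-Zim1 and −0.0469 at Snrpn-Ube3a. The latter was at 0.00847 ± 0.00317 in cerebellum. The 24 bins ranged widely. The lowest was the bin with the start of Snrpn (chr7:60000001-61000000), which read 0.0691, 0.0707 and 0.0647 in cortex, 0.0445, 0.048 and 0.0453 in olfactory bulb, and 0.0178, 0.0199 and 0.0212 in cerebellum. The bin of Ndn, Magel2 and Mkrn3 followed at 0.0606 ± 0.0053, 0.0462 ± 0.00232 and 0.0294 ± 0.00222. Both lay near the 4th percentile of all bins, at 3.91 and 4.03. In the same 1 Mb windows 5mC was 0.665 ± 0.00211 and 0.696 ± 0.0167 in cerebellum, so the sum of both marks was 0.685 and 0.726 there, the lowest sums of the 24 bins. The adjacent bin with the other end of Snrpn and with Ube3a read 0.124, 0.113 and 0.101, so the low level did not span the whole domain.

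The highest 5hmC was in a bin of Trappc9 (chr15:73000001-74000000), at 0.214, 0.23 and 0.204 in cortex, 0.201, 0.212 and 0.202 in olfactory bulb, and 0.134, 0.135 and 0.139 in cerebellum. Trappc9 reaches only to 73061204 in this bin. Next came the bins of Igf2r and Airn, at 0.201, 0.186 and 0.153, and of Impact, at 0.204, 0.194 and 0.135. The bins of Plagl1, of Nnat and Blcap, of Peg13, of Mest and of Zrsr1 also lay between the 79.1th and 84.9th percentiles. The remaining bins, with Zdbf2, Mcts2, Inpp5f, Peg10 and Sgce, Dlk1-Meg3, Kcnq1ot1, Rasgrf1, H19 and Igf2, Gnas, Grb10, Ube3a and Peg3, lay between the 18.8th and 60.8th percentiles.

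**Figure D5:**
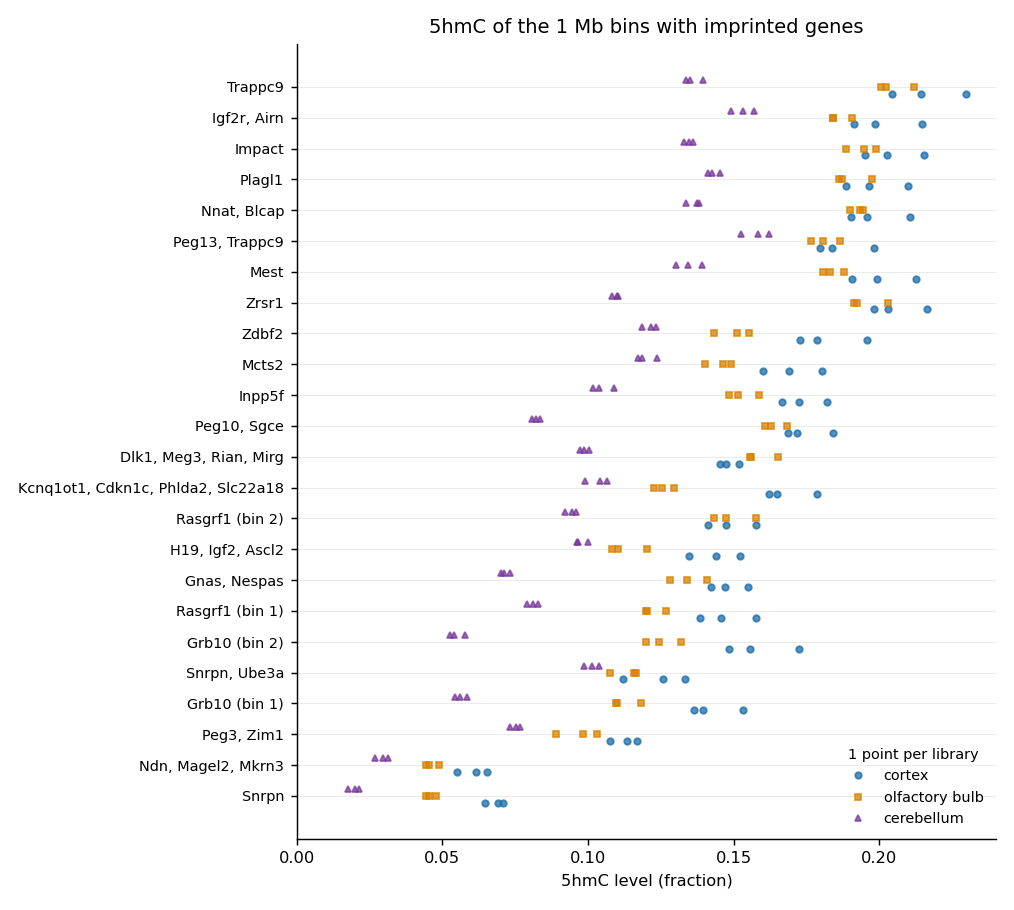
5hmC level (fraction, x axis) of the 24 bins of 1 Mb that hold imprinted genes (y axis, sorted by the mean of the tissues), with 1 point per library coloured by tissue. Cerebellum lies left of both other tissues in each of the 24 bins, and the bins of Snrpn and of Ndn, Magel2 and Mkrn3 lie apart from the rest, at 0.0707 or less in each library. Of all bins, limma called 97.6% lower in cerebellum than in cortex and 91.8% lower than in olfactory bulb.

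Cortex was highest and cerebellum lowest in 22 of the 24 bins, which is the order of the means of all bins. The share of all bins in this order was not counted. With limma, all 24 were lower in cerebellum than in cortex (97.6% of all bins) and than in olfactory bulb (91.8%), and 0 were higher, against 0.426% and 1.20%. In olfactory bulb 13 were lower than in cortex (67.7%) and 0 higher (3.25%), and 13 passed at an unadjusted p under 0.05 (73.0% of all bins). The members' medians on the log2 scale, −0.16, −0.74 and −0.63 for olfactory bulb against cortex, cerebellum against cortex and cerebellum against olfactory bulb, were smaller than those of all bins, −0.24, −0.97 and −0.72, and of the 17 neighbours, −0.22, −0.87 and −0.67. With libraries centred on their median, 11 were higher and 8 lower in olfactory bulb than in cortex (36.2% and 33.0% of all bins). Likewise 17 were higher and 5 lower in cerebellum than in cortex (50.3% and 40.1%), and 16 higher and 6 lower than in olfactory bulb (50.9% and 39.1%).

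The largest fall in level was in the second bin of Grb10 (chr11:12000001-13000000), in which the gene reaches only to 12038683. This bin read 0.156, 0.172 and 0.148 in cortex, 0.12, 0.132 and 0.124 in olfactory bulb, and 0.0527, 0.0539 and 0.0576 in cerebellum. The 3 tissues did not overlap, with log2 differences of −1.70 ± 0.07 (SE) from cortex to cerebellum and −0.40 ± 0.07 from cortex to olfactory bulb. The first bin of Grb10 fell by 1.48 on the log2 scale from cortex to cerebellum. On that scale the low bin with the start of Snrpn changed more than either, at −1.87 ± 0.07 (SE) from cortex to cerebellum. The Zrsr1 bin went from 0.206 ± 0.00926 in cortex to 0.109 ± 0.00117 in cerebellum and that of Peg10 and Sgce from 0.175 ± 0.00821 to 0.0821 ± 0.00149. In both, most of the fall lay between olfactory bulb and cerebellum, with olfactory bulb at 0.196 ± 0.00643 and 0.164 ± 0.00393. The log2 change of the Zrsr1 bin from cortex to cerebellum, −1.08, was near the median of all bins, −0.97. Its call passed under 13 of 14 alternatives. The bin of Gnas and Nespas went from 0.134 ± 0.00626 in olfactory bulb to 0.0715 ± 0.00151 in cerebellum. The highest bin of Trappc9 fell by 0.81 on the log2 scale from cortex to cerebellum, less than the median of all bins, so that it was 0.24 higher after centring.

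From cortex to olfactory bulb the largest falls in level were in the bin of Kcnq1ot1, Cdkn1c, Phlda2 and Slc22a18 and both bins of Grb10. Also among them were the bin of Zdbf2 and the bin of H19, Igf2 and Ascl2. The Kcnq1ot1 bin read 0.165, 0.179 and 0.162 in cortex and 0.123, 0.129 and 0.125 in olfactory bulb. This was a log2 difference of −0.49 ± 0.07 (SE), with a limma adjusted p of 1.72e-10. On the log2 scale the bin with the start of Snrpn changed most, at −0.60 ± 0.07, and that of Ndn, Magel2 and Mkrn3 was at −0.41 ± 0.07. The bin of Dlk1, Meg3, Rian and Mirg went the other way, at 0.147, 0.152 and 0.145 in cortex and 0.156, 0.165 and 0.156 in olfactory bulb. Its libraries did not overlap, yet the difference of 0.12 ± 0.07 did not pass (limma adjusted p = 0.131). It and the second bin of Rasgrf1 were the 2 bins in which olfactory bulb was not lower than cortex.

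Of 29 other genes named in mouse as imprinted in these domains in at least some tissue, such as Kcnq1, Rtl1, Dio3 and Kcnk9, 39 bins held no member. Of these, 17 were lower than their surroundings (32.7% of all bins) and 14 higher (46.3%), with a median of −0.0102, against −0.0394 over the 46 member bins. In cerebellum 26 were higher and 2 lower than in cortex (71.9% and 4.44% of all bins), and 11 higher and 6 lower than in olfactory bulb (35.3% and 7.69%). In olfactory bulb 13 were higher and 0 lower than in cortex (37.6% and 2.18%).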

How the data were processed

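The authors mapped oxBS-seq and TAB-seq reads uniquely to mm10 with Bismark and deposited, for each of 16 libraries, each bin's level as a fraction between 0 and 1, per 100 kb for 5mC and per 1 Mb for 5hmC. The study defines the level of a single site as C reads over C plus T reads, but how sites or reads were combined into a bin is not given in the sources used here. The tables hold no coverage per bin, and the study's mean coverage per tissue was not used, so precision was judged only from the spread between libraries. RNA-seq was not analysed here. Tissues and replicate numbers came from the labels, and the study's methods state that replicates are from different mice.

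The members and lists were chosen with earlier results of these data known. A bin was dropped from an assay if one of its libraries lists 0 or 1 there. Bin ends were checked against GRCm38. Each assay was fitted with limma 3.58.1 (R 4.3.3) on log2(level/(1 − level)) over the 3 tissues, with Benjamini-Hochberg adjustment over all bins and a threshold of 0.05. A second fit used the 5mC fraction minus the mean of usable bins within 500 kb, at least 5. In the fits on log2(level/(1 − level)) the spread was pooled over bins, so that p does not follow a bin's own spread. The SE is nearly equal in all bins there (0.117 to 0.146 for 5mC between cortex and another tissue, 0.0732 for 5hmC). In the second fit the SE differed between bins, from 0.00925 to 0.125 between cortex and another tissue. The code was tested on simulated data. All 37 members are named, with detail for at most 5 bins per direction and comparison (called, libraries not overlapping) and for the 3 lowest and 3 highest loci.

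Replicate numbers are shared between tissues. Deviations of same-numbered libraries from their tissue mean correlated at −0.0906 to 0.0158 for 5mC. For 5hmC, the 3 pairs of cortex and olfactory bulb gave 0.126, 0.344 and 0.25, all over 0.1, while pairs with cerebellum ranged from −0.229 to 0.0743. The numbers were therefore treated as a possible pairing of cortex and olfactory bulb libraries, which the labels do not state. The main fits held no replicate block. Alternatives were the fraction scale, centring, keeping all bins, limma's trend and robust options, other neighbourhoods, a replicate block and leaving out each library.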

Additional observations from a re-analysis of the deposited data

Results flagged for a closer look

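The results that follow are tissue differences of a member bin relative to its surroundings that passed the limma test of the difference itself, given as fractions. From cortex to cerebellum, the bin changed by 0.0813 at Kcnq1ot1, 0.0674 at Impact, 0.0657 at Rian, 0.0585 in the second bin of Ube3a and 0.0406 at Mcts2. It changed by −0.105, −0.0482 and −0.0496 in the Trappc9 bins from 72600001, 72700001 and 73000001, by −0.0544 in the bin of Igf2r and Airn, and by −0.0405 in the bin of Peg10 and Sgce. From olfactory bulb to cerebellum the changes were 0.0642 in the second bin of Ube3a, 0.057 at Kcnq1ot1, 0.0512 at Zrsr1, 0.0499 at Mcts2, 0.0408 at Rian, 0.0393 in the Snrpn bin from 60000001 and −0.0899 in the Trappc9 bin from 72600001. From cortex to olfactory bulb they were 0.0493 at Impact and −0.0467 in the bin of Igf2r and Airn. Of these 19 differences, 4 passed under all 14 alternatives, namely both of the Trappc9 bin from 72600001 and those of Kcnq1ot1 and Rian from cortex to cerebellum. That of Impact from cortex to olfactory bulb became −0.00572 with neighbours within 250 kb. The change of the Trappc9 bin from 72700001 was weaker with neighbours within 250 kb, and over the alternatives it came as close to no change as −0.00916. Such calls were not more frequent among members than over all bins. From cortex to cerebellum, 10 of 46 member bins were called, against 6312 of 25653 bins in all. The counts were 7 against 5651 from olfactory bulb to cerebellum, and 2 against 2637 from cortex to olfactory bulb.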

How the results depend on the processing

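The number of member bins called for 5mC changed most. For olfactory bulb and cortex it was 9, 4 with libraries centred and 2 with all bins kept, and from 1 to 10 when 1 library was left out. Leaving out 1 library gave 15 to 27 for cerebellum and cortex (25) and 3 to 19 for cerebellum and olfactory bulb (14). Relative to neighbours, the counts were 2 (1 to 3, and 5 with neighbours within 1 Mb), 10 (5 to 11) and 7 (2 to 10, and 3 with all bins kept). Where a tissue is left with 1 library, that library is assumed to vary like the others. The mean over loci of −0.04 became −0.0458 with neighbours within 250 kb, −0.0476 with medians over bins and −0.0608 with only the bins of gene starts. The totals called for 5hmC stayed within 1.5 times throughout, but not their direction: with libraries centred, 0 higher and 24 lower in cerebellum than in cortex became 17 and 5, 0 and 24 against olfactory bulb became 16 and 6, and 0 and 13 in olfactory bulb against cortex became 11 and 8.

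Some values turned in sign. Centring, which shifts all bins of a library alike, made the 5hmC of the Trappc9 bin, 1 of the bins just counted and named here by rule, higher in cerebellum than in cortex (0.24) and than in olfactory bulb (0.0906). With neighbours within 250 kb, Mest came to −0.0284 for its bin and −0.0183 for its locus, H19 to −0.00142, the second bin of Airn to 0.0295, Rasgrf1 to 0.0397 for its locus, and Impact to −0.00572 between olfactory bulb and cortex. With neighbours within 1 Mb, the first bin of Snrpn came to −0.014 and the first of Grb10 to −0.0115.

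A replicate block with the labels' numbers gave 7, 24 and 20 calls for 5mC and 13, 24 and 24 for 5hmC. A block with the numbers in the library names, which differ from the labels and were added after the data were seen, gave 11, 29 and 15 for 5mC. The block moved no count of calls by over 1.5 times.

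Depth per bin is unknown, 2 libraries of a tissue give the spread little support, and bins of 100 kb and 1 Mb average control regions with their surroundings.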
